A study of Neurospora crassa with 10 samples.

Results

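Linkage group I is the longest of the 7 chromosomes of the filamentous fungus Neurospora crassa. Its members here are the 2346 genes, of 9729 in all, and the 75 domains of trimethylated histone H3 lysine 9 (H3K9me3), of 346 in all, that the deposited wild-type lists place on it. They were chosen by chromosome name alone, so no measured value decided membership. The study itself placed a FLAG-tagged histone H3 gene (Pvvd::hH3-3xFLAG::his-3+), under the promoter of the light-induced gene vvd, at the his-3 locus, which lies on linkage group I. Germinated conidia were kept in darkness for 18 h at 32 °C, then in 100 mM hydroxyurea, an inhibitor of DNA replication, for 3 h, and were lit at 465 nm before FLAG immunoprecipitation. The 10 libraries are 5 groups of 2, all of which carry the tagged gene: wild type (mat a) and deletions of dim-2 (mat a, marked with hph), dim-5 (marked with bar), hda-1 (mat a, marked with hph) and hpo (marked with hph), where the labels leave the mating type of the dim-5 and hpo strains open. No value of a single library was analysed here, so the depth is unknown and no genotype is compared. The names of the gene and domain lists say wild type, and nothing further on their strain or culture was given.

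In N. crassa, constitutive heterochromatin forms on AT-rich repeats that were mutated during the sexual cycle. The methyltransferase DIM-5 places H3K9me3 there, the heterochromatin protein HPO (HP1) binds it, and DIM-2 methylates the DNA. The longest stretches of such chromatin lie at the centromeres and others at the chromosome ends and scattered along the arms. No binding of the centromeric histone was measured here, so the longest domain is called only that.

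The authors sorted genes into 4 lists by wild-type expression, called here the lowest, the 25-50%, the 50-75% and the highest list, and the list of a gene is its only expression value. Linkage group I had few genes of the lowest list and many of the highest. It held 472 genes of the lowest list, or 20.1% of its genes (Wilson 95% interval 18.5 to 21.8), where the list holds 25% of all genes. The other 6 linkage groups ranged from 23.7% on II to 32.2% on VII. The highest list held 662 of its genes, or 28.2% (26.4 to 30.1), against 25% of all genes and 20.3% on VI to 27.0% on V among the others. The 25-50% list had 570 of its genes and the 50-75% list 642. So linkage group I had the smallest share of the lowest list and the largest share of the highest list among the 7, and for both lists its intervals did not overlap those of IV, VI and VII. For the lowest list they also did not overlap those of III and V, and for the highest list they did overlap those of II, III and V. These intervals cover counting error only and treat neighbouring genes as independent, and no test between linkage groups was made, since each is a single chromosome.

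In gene density linkage group I was not at either extreme. Its 9.80 Mb held 239 genes per Mb, rank 4 of the 7, where the others ranged from 230 to 247. Its genes were the longest by median, 2230 bp against 2034 to 2147 bp. Within the lists its gene lengths were in the range of the other chromosomes except in the 50-75% list, with a median of 1228.5 bp in the lowest list (others 1145 to 1356) and 2724 bp in the highest (others 2624 to 2958).

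**Figure D1:**
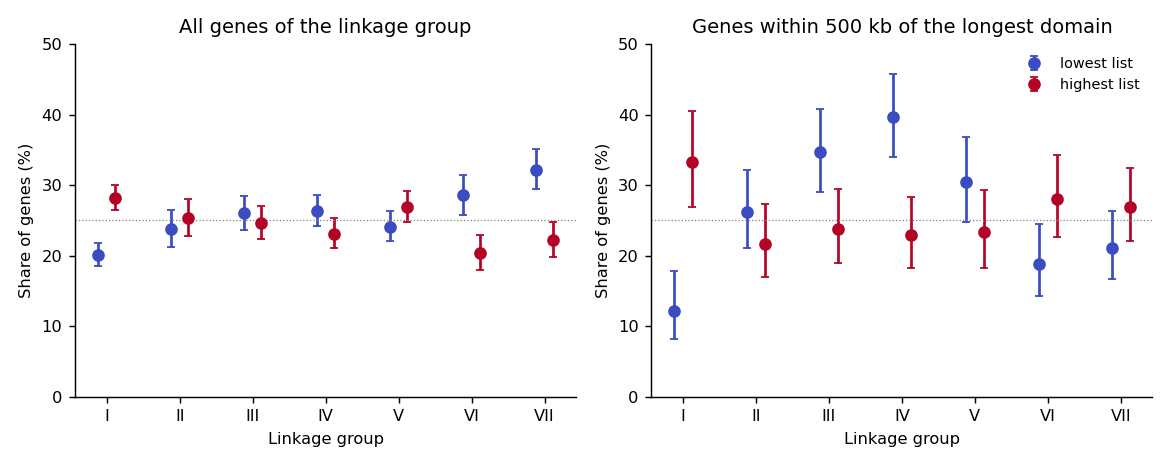
Share of genes (y axis, %) in the lowest (blue) and highest (red) expression list for each linkage group (x axis), over all its genes (left panel) and over genes within 500 kb of its longest H3K9me3 domain (right panel), with Wilson 95% intervals as bars and a dotted line at 25%. Linkage group I is lowest for the lowest list and highest for the highest list in both panels, at 20.1% and 28.2% on the left and 12.2% and 33.3% on the right.

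Counted domain by domain, the heterochromatin of linkage group I was made up of medium-sized domains more than of very long ones. Its 75 domains covered 1449 kb, or 14.8% of the chromosome, the second lowest share of the 7 (others 14.4% to 20.3%). Of them, 14 were 30 to 100 kb long and held 48.8% of the domain sequence, against 23.8% in that class on the other 6 chromosomes together. Only 1 exceeded 100 kb, with 14.2% of the sequence, against 33.7% in 8 such domains elsewhere. Another 20 were shorter than 3 kb and held 1.84%. Domains were counted in steps of 300 bp, so the shortest are 1 or a few steps. The classes depend on where neighbouring domains were split. Joined across gaps of less than 20 kb, the longest domain and its neighbours form a block of 546 kb, described below. The blocks made so on the other chromosomes were shorter, 295.5 to 471.3 kb. A listed gene was overlapped by 40 of the domains, the other 35 overlapped none, and 8 held a complete gene.

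Between the domains lay long stretches without any. On linkage group I, 9 stretches of at least 300 kb made up 41.9% of the chromosome and held 1162 genes, 49.5% of its total. The longest ran for 699 kb, from 8293201 to 8992200 (NC12 coordinates, as all below), between NCU03050 and NCU16488, and held 203 genes, of which 60 were in the lowest list and 41 in the highest. It was longer than any stretch on the other chromosomes, where the longest was 659.1 kb on IV. The second on linkage group I ran from 2404501 to 3062100 and had the opposite make-up, with 29 of 189 genes in the lowest list and 65 in the highest.

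In windows of 100 kb, gene number was lower where domain cover was higher, whereas the shares of the lists did not go steadily up or down with it. The 98 windows held 1 to 38 genes, with a median of 25 and an interquartile range of 21 to 29. The 38 windows with no domain had a median of 28 genes, the 26 windows with 10 to 50% cover a median of 21, and the 9 windows above 50% a median of 6. Across windows, domain cover and gene number had a Pearson r of -0.83 and a Spearman rho of -0.68 (n = 98 windows of 1 chromosome), a description only, since gene and domain bases share the length of each window, and on the other chromosomes r was -0.88 (n = 310).

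The share of the lowest list was 19.5% of 1072 genes in windows with no domain, 23.4% of 671 at up to 10% cover, 17.9% of 536 at 10 to 50% cover and 14.9% of 67 above 50%. On the other 6 chromosomes the same classes held 22.3%, 26.7%, 31.4% and 28.8%. The highest list on linkage group I stayed near 28% through the first 3 classes, at 28.0%, 28.3% and 28.0%, and stood at 32.8% in the last. Elsewhere it went from 26.7% with no domain to 20.7% at 10 to 50% cover, and stood at 28.8% of 132 genes in the last class. The last class was thus the highest both on linkage group I and elsewhere. Over the 92 windows of linkage group I with 10 or more genes, domain cover and the share of the lowest list had a Spearman rho of -0.0016, against 0.22 over 288 windows elsewhere.

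**Figure D2:**
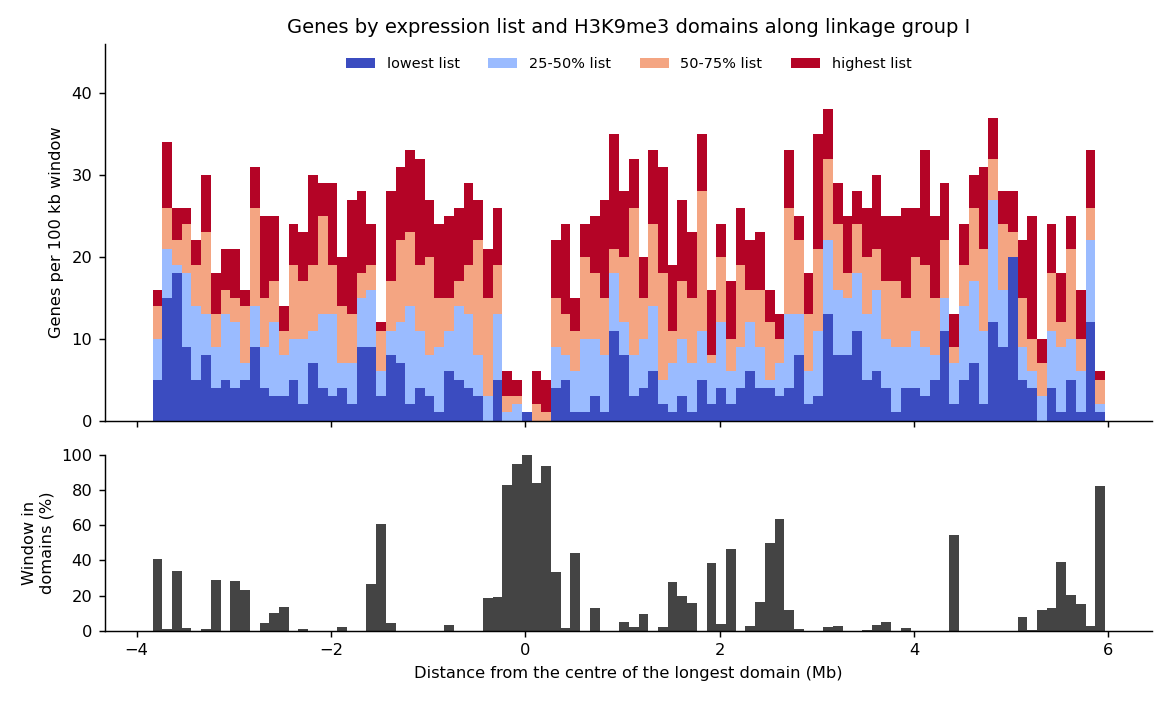
Genes per 100 kb window, stacked by expression list (upper panel), and the share of each window in H3K9me3 domains (lower panel, %), along linkage group I by distance from the centre of its longest domain (x axis, Mb). The 5 windows around that domain hold 23 genes together, and the window with the most lowest-list genes, 20 of 28, lies about 5 Mb to the right of it where no domain falls.

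Single windows showed where the lists gathered. The most gene-dense window, 6900001 to 7000000, held 38 genes, of which 13 were in the lowest list. The most genes of the lowest list were 20 of 28, at 8800001 to 8900000, with no domain in the window. The next were 18 of 26 at 200001 to 300000, where domains took 34% of the window. The most genes of the highest list were 15 of 25, at 9000001 to 9100000, just beyond the end of the longest stretch without domains. The window at 4700001 to 4800000, next to his-3, held many of both, with 11 lowest-list and 14 highest-list genes among 35.

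On the scale of 1 Mb, weakly expressed genes were most frequent in the first segment and the ninth. In the first Mb, 78 of 230 genes (33.9%) were in the lowest list and 44 (19.1%) in the highest. In the ninth, 78 of 267 (29.2%) were in the lowest list and 61 (22.8%) in the highest. Domains covered 15.9% of the first segment but 6.24% of the ninth. In between, from 3 to 6 Mb, the lowest list held 14.0%, 15.6% and 12.2% of the genes and the highest list 32.6%, 32.5% and 32.2%. This central part includes the segment with the most heterochromatin, 40.3% of the fourth Mb. Among 29 full segments of the other chromosomes, the share of the lowest list ranged from 11.6% to 50% with a median of 24.0%.

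**Figure D3:**
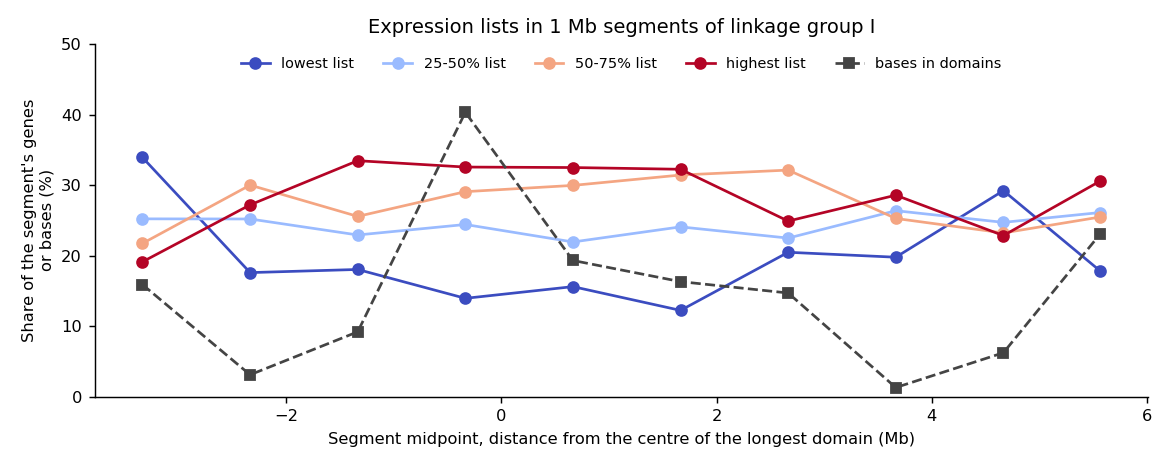
Share of genes in each expression list (coloured lines, %) and share of bases in H3K9me3 domains (dashed line, %) in 10 segments of linkage group I, each 1 Mb long except a shorter last one, by distance of the segment's midpoint from the centre of the longest domain (x axis, Mb). The lowest list peaks in the first segment (33.9%) and the ninth (29.2%), and the domain share peaks in the fourth (40.3%), where the lowest list is at 14.0%.

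The longest domain was nearly free of listed genes, and the heterochromatin around it carried genes mostly of the upper 2 lists. The domain spans 3732601 to 3938700, 206.1 kb. It overlaps NCU08578 (highest list, 67.3% of its length covered by domains) and NCU08579 (50-75% list, 82.9%), 2 overlapping genes at its left edge. The only gene completely inside is NCU08585 of the lowest list, an interval of 303 bp. From there to the next gene, NCU09892, lay the widest gap between neighbouring genes on the chromosome, 152.7 kb, of which 97.8% was domain.

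Further domains lay close by on both sides. Domains separated by less than 20 kb, a spacing chosen after the positions were seen, form a block of 11 domains from 3552901 to 4098900, 546 kb long and 86.9% domain. It held 474.6 kb of domain sequence, 32.8% of all on the chromosome, and outside it domains covered 10.5%. Joined in the same way, the block around the longest domain of the other chromosomes was 295.5 to 471.3 kb long and touched 3 to 28 genes. The block on linkage group I touched 32 genes, 16 of which belonged to the highest, 7 to the 50-75%, 7 to the 25-50% and 2 to the lowest list. Its upper 2 lists thus made up 71.9%, where they were 55.6% over the whole chromosome. On the other 6 chromosomes together, 62 genes were touched, with 18 from the highest, 20 from the 50-75%, 14 from the 25-50% and 10 from the lowest list. Of these 62, 38 were in the upper 2 lists. Over all genes of those 6 chromosomes the 50-75% list holds 24.2% and the highest 24.0%, so the upper lists were frequent in those blocks too. The 28 genes on VII gave the counts nearest to those of I, with 11 in the highest, 12 in the 50-75%, 2 in the 25-50% and 3 in the lowest list. The upper 2 lists thus had 23 of 28 genes on VII, a larger share than the 23 of 32 on I.

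Of the 32 genes of the block, 17 overlapped a domain, 5 of them completely, and the other 15 lay in gaps between domains. To the left of the longest domain, NCU10059 and NCU16377 (both 25-50% list) and NCU10058 (highest list) lay in and around a gap of 3.3 kb, and NCU09994 (50-75% list) and NCU09995 (highest list) in and beside a gap of 13.8 kb. That gap also held NCU09996 (25-50%) and NCU09998 (highest), and NCU09999 (highest), with 3.54% of its length in a domain, reached into it. Domains covered NCU10059 over 83.6% of its length, NCU09994 over 72.2% and NCU10058 over 23.3%, whereas NCU16377 and NCU09995 lay outside. To the right, NCU09892 (highest list) was completely in a domain. A gap of 18 kb between domains followed, with NCU09894 (50-75% list, 11.1% covered), NCU09895 (highest), NCU09896 (50-75%), vma-5 (highest), which encodes a subunit of the vacuolar proton pump, NCU09898 (highest) and NCU09899 (50-75%). vma-5, at 3993967 to 3996177, lay 6.67 kb from the nearest domain. Further left, the block also held hsp30, a heat shock gene of the 25-50% list, 193 bp from a domain.

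**Figure D4:**
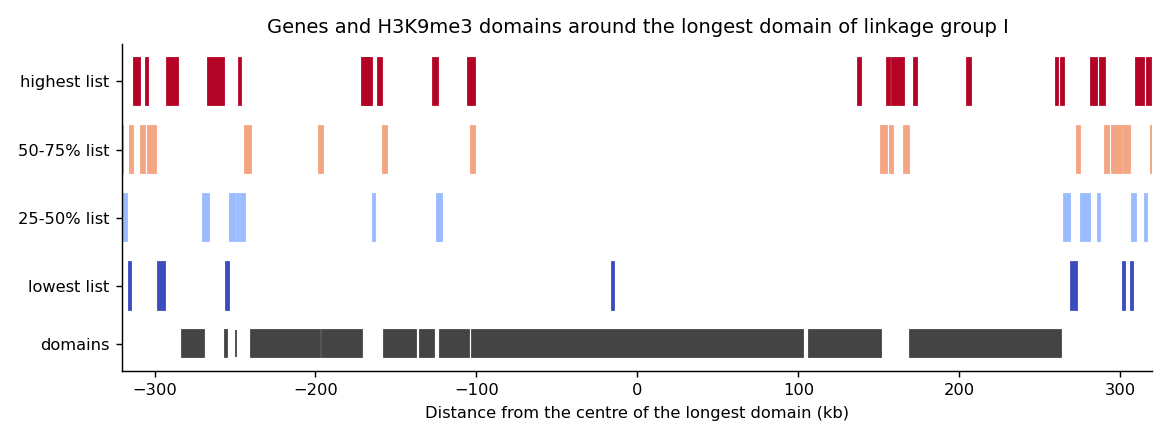
Genes of each expression list (4 upper rows, coloured) and H3K9me3 domains (bottom row, grey) within 320 kb of the centre of the longest domain of linkage group I (x axis, kb); box widths are gene and domain lengths, with genes under 1.5 kb drawn at that width. Inside the longest domain the 1 complete gene belongs to the lowest list. Of the 15 block genes in the gaps between domains, 10 belong to the 50-75% and highest lists. These 2 lists hold 55.6% of all genes of the chromosome.

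Away from the longest domain, gene density reached the level of the chromosome at 200 to 500 kb on the left and beyond 500 kb on the right. To the left, the density was 60 genes per Mb within 50 kb of the longest domain, 120 at 50 to 100 kb, 140 at 100 to 200 kb and 263 at 200 to 500 kb. To the right the same bins held 40, 120, 150 and 183 genes per Mb, and 298 at 500 to 1000 kb. Up to 500 kb, domain cover went from 85.6% to 6.30% on the left and from 90.6% to 26.5% on the right. The right side therefore kept more heterochromatin at 200 to 500 kb, in 4 domains against 1.

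Few genes on the flanks of the longest domain were in the lowest list. The flanks leave out the 3 genes that overlap the domain itself, 1 each of the lowest, the 50-75% and the highest list. Of 17 flanking genes within 100 kb, the highest list had 9 and the lowest list 0. On the other chromosomes together the lowest list held 24.2% of 128 genes within 50 kb and 30.1% of 113 at 50 to 100 kb. The highest list held 25.8% and 27.4% there. These flanks were unlike in heterochromatin, as domains covered 36.0% and 38.8% of those 2 bins elsewhere but 88.1% and 68.4% on I. Of 180 flanking genes within 500 kb, 22 (12.2%, Wilson 95% interval 8.21 to 17.8) were in the lowest list and 60 (33.3%, 26.9 to 40.5) in the highest. Around the longest domains of the other chromosomes the lowest list held 18.9% on VI to 39.7% on IV, and the highest list 21.7% to 28.1%. For the highest list the interval of I overlapped those of all the others. For the lowest list it overlapped those of VI (14.3 to 24.4) and VII (16.8 to 26.3) only. With domains under 20 kb apart merged, the shares within 500 kb on I were 13.9% and 29.1%, the latter near the 28.2% of the whole chromosome. At 500 to 1000 kb on I, where domains covered 2.34%, the lowest list still held 15.8% of 285 genes and the highest 32.6%. The chromosomes differ in where the longest domain lies, 3.73 Mb from the nearer end on I but 0.683 to 1.77 Mb elsewhere. The part of this position in the shares was not tested.

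The chromosome's sides had nearly the same make-up. The left side, of lower coordinates, is 3.73 Mb long with 909 genes and 30 further domains, and the right side is 5.86 Mb long with 1434 genes and 44. Their gene densities were 244 and 245 per Mb. The lowest list held 21.2% of genes on the left (18.7 to 24.0) and 19.4% on the right (17.4 to 21.5), and the highest list 27.7% (24.9 to 30.7) and 28.5% (26.2 to 30.9), so the intervals overlapped for both lists. Domains covered 11.6% of the left side and 13.8% of the right, with a median length of 10.2 and 8.25 kb and a longest of 69.3 and 93.6 kb.

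Genes that reached into a domain made up nearly the same share on linkage group I as over all chromosomes, and the highest list supplied the most of them. Of its 2346 genes, 49 (2.09%, Wilson 95% interval 1.58 to 2.75) overlapped a domain by at least 1 bp, against 2.17% of all genes. The lowest list supplied 9 (1.91% of its genes, 1.01 to 3.58) and the highest 18 (2.72%, 1.73 to 4.26), and both middle lists 11 each. On the other chromosomes the shares were 2.86% (2.21 to 3.69) of the lowest list and 2.15% (1.57 to 2.93) of the highest. The intervals overlap within linkage group I and between it and the rest. Of the 49 overlaps, 26 were shorter than 300 bp, 1 step of the domain positions.

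Of the genes on linkage group I, 16 had at least 50% of their length in a domain, 0.682% against 0.534% of all genes. The highest list supplied 7, the 50-75% list 3, the 25-50% list 2 and the lowest 4. On the other chromosomes, 25 of 36 such genes were in the lowest list and 2 in the highest. Of the 16, 11 overlapped the longest domain or lay within 500 kb of it, a range that held 183 genes or 7.80% of all on the chromosome, the 3 overlapping ones included. Of the 10 genes in the upper 2 lists, 9 lay in that range.

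Completely covered were 10 genes, 0.426% of those on linkage group I against 0.319% of all genes, 6 of them in the highest list and 4 in the lowest. Those of the highest list were NCU09892, NCU09900, NCU10073, NCU09802 and NCU10069, all 34.0 to 395 kb to the right of the longest domain, and NCU00995 at 6456247 to 6457409. The domain from 4005301 to 4098900, 93.6 kb long, held NCU09900, NCU10073 and NCU09802 and no other complete gene. Those of the lowest list were spread along the chromosome, NCU08083 at 208395 to 209343, NCU08585 in the longest domain, NCU09105 at 5337406 to 5339465 and NCU10702 at 6319360 to 6320600. The partly covered genes not yet named were NCU09914 (25-50% list, 64.2%), near the left end, and NCU09360 (50-75% list, 51.7%), 92.0 kb to the left of the longest domain. The reference table gives none of the 16 genes a symbol, so their roles are not stated here.

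Over the whole of linkage group I, the lowest list had no smaller median distance to heterochromatin than the highest. To the nearest domain, the lowest list had a median of 53.8 kb (interquartile range 13.6 to 114) and the highest one of 51.1 kb (16.1 to 116), a difference of -2.64 kb. The medians of the middle lists were 46.2 kb (25-50%) and 51.7 kb (50-75%). On each of the other 6 chromosomes the highest list was farther away than the lowest, by 0.32 kb on VII to 24.6 kb on III, and over all 6 by 11.2 kb.

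The sides of the longest domain differed in direction. On the left, the lowest list had a median distance of 37.2 kb (interquartile range 10.0 to 86.0, n = 193) and the highest list one of 63.2 kb (26.2 to 133, n = 252), a difference of 25.98 kb. On the right, the lowest list had 67.0 kb (18.9 to 124, n = 278) and the highest 40.5 kb (12.7 to 101, n = 409), a difference of -26.5 kb. The interquartile ranges of the lists overlapped widely on both sides. Distances of at least 100 kb were found for 16.6% of the lowest and 36.1% of the highest list on the left, and for 36.3% and 25.2% on the right. The 12 sides of the other chromosomes gave differences of -5.15 to 28.9 kb, and 1 of them was below 0.

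The right side rested in part on the 699 kb stretch without domains. Without that stretch, the right-side medians were 43.2 kb for the lowest list against 35.2 kb for the highest, a difference of -7.96 kb, and over the whole chromosome the direction turned to 9.75 kb. This setting was chosen after the distances were seen.

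**Figure D5:**
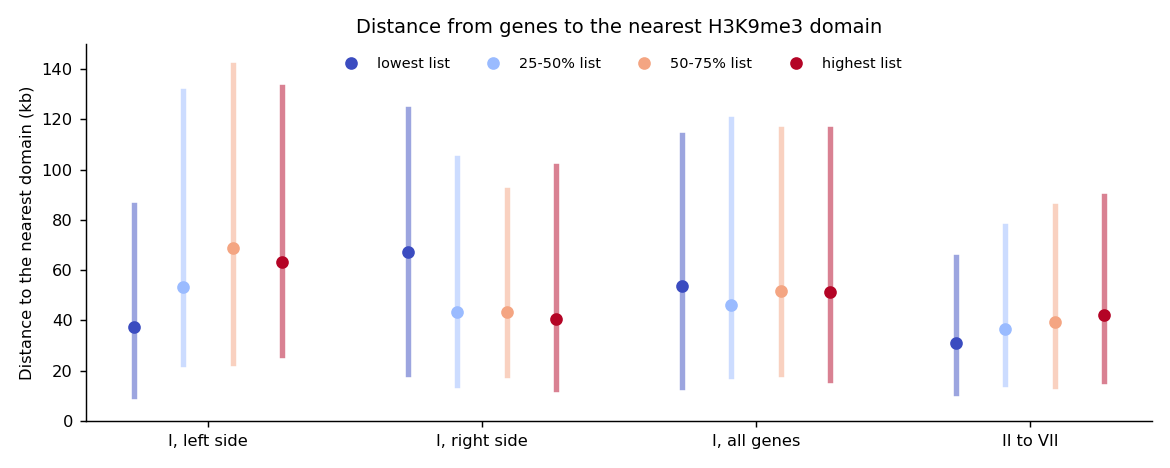
Distance from genes to the nearest H3K9me3 domain (y axis, kb) for each expression list on the left and right sides of the longest domain of linkage group I, over the whole of I and over II to VII; dots are medians and bars interquartile ranges. The lowest list is nearer than the highest on the left (37.2 against 63.2 kb) and farther on the right (67.0 against 40.5 kb).

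Neighbouring genes on linkage group I were in the same list in 752 of 2345 adjacent pairs (32.1%), and on the other chromosomes in 31.1% to 34.6%. The pairs were 159 of the lowest, 154 of the 25-50%, 199 of the 50-75% and 240 of the highest list, so the highest list gave the most here. On the other 6 chromosomes together the lowest list gave the most, 888 of 2445. Such counts depend on the size of the list. The highest list is the largest on linkage group I, with 662 genes, and the lowest list is the largest on the others, with 1961. The part of list size in these counts was not tested. Gene intervals overlapped their neighbour in 307 pairs (13.1%), the largest share of the 7 chromosomes (others 10.0% to 12.5%), and the median gap was 594 bp.

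Runs of weakly expressed genes held a small share of the lowest list, near that on II. Linkage group I had 7 runs of 5 or more genes of the lowest list, where the others had 5 on II to 11 on IV, V and VII. The 7 runs held 63 genes or 13.3% of that list, where the other chromosomes ranged from 13.1% on II to 32.2% on III. The part of list size in these runs was not tested. The longest, 14 genes from NCU02873 to NCU02860 (8848772 to 8882350), lay in the stretch without domains, 109.9 kb from the nearest. The next, near the left end, did contain heterochromatin. The 13 genes from NCU08096 to NCU08109 (243324 to 303729) flank a domain of 24.3 kb, and the 12 genes from NCU08077 to NCU08089 (188531 to 224874) include one of 10.2 kb.

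Among runs of the highest list, 7 genes from NCU02815 to NCU02809 (9024259 to 9053570) begin with os-1, the histidine kinase gene of osmotic sensing, and lay 24.0 kb from a domain. The longest run of that list, of 8 genes, ran from NCU01912 to NCU01904 and lay 103.1 kb from a domain. The 50-75% list had a run of 7, from NCU02755 to NCU02762 (3451939 to 3476170), which ended 0.53 kb from a domain left of the block. The 25-50% list reached 4 in a row, among others from NCU02119 to NCU02116.

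The share of the lowest list at both ends of the chromosome was above the 20.1% of the whole, more clearly at the left end. Within 200 kb of the left end, 20 of 50 genes (40%, 27.6 to 53.8) were in the lowest list and 10 in the highest, with 20.95% of the bases in 6 domains. At the right end the counts were 13 of 39 (33.3%, 20.6 to 49.0) and 8, with 42% in 3 domains. The interval of the right end includes the 25% of all genes and overlaps that of the whole chromosome (18.5 to 21.8). The 12 ends of the other chromosomes had 20.5% to 45.7% of their genes in the lowest list. The outermost genes themselves were not of that list. They were NCU10129 (50-75% list, 37.6% covered), NCU09901 (25-50%) and NCU09903 (50-75%) on the left, and NCU10031 (50-75%), NCU10030 (25-50%) and NCU10029 (50-75%) on the right. NCU10031 ended 31 bp before the last domain, which runs from 9772201 to the last position counted, 9798600.

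The locus that received the tagged histone lay in a stretch free of H3K9me3 domains. The gene his-3, of histidine synthesis (4694770 to 4697885, highest list), is 756.1 kb to the right of the longest domain. It lies 150.7 kb from the domain on its left, at 4531201 to 4544100, and 180.4 kb from that on its right, at 4878301 to 4883400. The 334.2 kb between these domains held 100 genes, 20 of the lowest and 36 of the highest list. The nearest neighbours were NCU03136 and NCU03137 (highest list) and NCU03138 (25-50%) on the left, and NCU03140 (lowest), lpl (NCU03141, highest) and NCU03142 (50-75%) on the right, which makes 4 of 7 genes in the highest list. The positions are those of the reference chromosome, and the inserted gene itself is not in the lists.

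Genes with known roles on linkage group I were drawn from 10 lists by symbol, which gave 76 genes there. Not every name asked was matched to a gene, so all counts by symbol are of matched genes only. The highest list had 44 of the 76, the 50-75% list 16, the 25-50% list 10 and the lowest 6. The highest list thus had 57.9% and the lowest 7.89%, near the shares over all 298 genes of the chromosome with a symbol, 49.0% and 7.05%, beside which the counts of the single lists stand. Among the 76, 1 gene, cdp-2, touched a domain (1.32%), near the 2.09% of all genes on the chromosome.

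All 9 genes of the light response and clock were in the highest list. They include wc-2, a white collar gene of blue-light sensing, al-1 and al-2 of carotenoid synthesis, cry, for a cryptochrome, and phr, for the photolyase that repairs DNA in light, and 8 of the 9 lie on the right side. Their distances to a domain ranged from 15.4 kb for con-8, a conidiation gene, to 219 kb for cry, with a median of 179 kb. The clock genes prd-4 and ck-1a, both for kinases, lay 30.8 and 51.6 kb away and phr 55.5 kb, and csp-1, for a transcription factor of the clock, al-1 and al-2 lay 190 to 208 kb away. On the other chromosomes 14 of 19 genes of this list were in the highest list. Whether the ranked cultures had seen light was not stated.

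The 5 genes of the mating list on linkage group I were in the lowest list and lay on the left side. On the other chromosomes 1 gene of this list was in the lowest and 2 were in the 25-50% list. The 5 on linkage group I are matA-1, matA-2 and matA-3, which form 1 locus, the mating type locus (1857194 to 1862194), the pheromone gene ccg-4 and the fertility gene fmf-1. The mating type genes lay 82.7 to 86.4 kb from a domain, fmf-1 lay 7.03 kb away, and none overlapped one. The labelled wild type is mat a, a mating type whose strains carry another sequence at this locus, and that of the ranked strain was not stated. A further gene of the sexual cycle in the lowest list was sad-1 of meiotic silencing, 5.93 kb from a domain.

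The matched genes of chromatin were mostly in the middle lists. Of the 5 matched on linkage group I, the H3K27 methyltransferase gene set-7 and the deacetylase genes hda-2 and hda-3 were in the 25-50% list. The chromodomain gene cdp-2 was in the 50-75% list and cac-2, of chromatin assembly, in the highest. A domain reached 118 bp into cdp-2 (7370870 to 7373518), and the others were 23.0 to 87.0 kb away. Of the 29 chromatin names asked, 11 were not matched on any chromosome. The name rid was asked, but rid-1 (NCU02034, 25-50% list, 60868 bp from a domain) was not matched to it and is not counted. Other chromatin genes of the chromosome were not asked and are not counted either. Among them, set-3, hat-2 and crf4-3 were in the highest list and set-8, ada-2 and arp-4 in the 50-75% list. The placement of the matched genes thus depends on the names asked. No matched histone gene lies on linkage group I. The quelling gene qde-3, of a DNA helicase, was in the 25-50% list 19.3 kb from a domain.

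Metabolic genes were mostly in the upper 2 lists, which hold 77.9% of the chromosome's genes with a symbol. Of 27 genes of amino acid, nucleotide and vitamin synthesis, the highest and the 50-75% list had 12 each, the 25-50% list 3 and the lowest 0. The nearest to a domain were cys-16 at 1.50 kb and rib-5 at 5.69 kb, both of the 25-50% list, followed by nic-6 at 11.1 kb and ad-9 at 12.2 kb (50-75% list) and aro-7 at 12.3 kb (highest). Of 18 genes of mitochondrial function and proton pumps, 14 were in the highest list. Among them nuo12.3, a gene of respiratory complex I, lay 8.93 kb from a domain, and nuo17.8 of the same complex 15.3 kb. cyt-4, of mitochondrial RNA processing, was in the 25-50% list 4.07 kb from a domain and 280.1 kb to the right of the longest domain.

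Of 8 signalling and growth genes, 6 were in the highest list. They include the adenylate cyclase gene cr-1, 19.0 kb from a domain, the osmosensing kinase genes os-1, os-4 and os-5, and the hyphal fusion gene so. The dynactin gene ro-10 (25-50% list) was 20.6 kb from a domain in the left end region, and ham-4, of hyphal fusion, was in the 50-75% list. The nitrogen regulator gene nit-2 and the ribosomal protein gene crp-7, single members of their lists on this chromosome, were in the highest list at 44.1 and 53.9 kb from a domain.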

How the data were processed

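Per the file headers and names, the authors deposited 4 files of gene intervals, sorted by expression in wild type, and 1 of H3K9me3 domains from SICER. The submitters' processing notes also name Bowtie2, HOMER and deepTools, without settings or versions. The values used were start and end positions in base pairs. The score column of the gene lists, 0 in every row, was not used, and 10 empty rows were skipped. List names were read as percentiles that rise with expression, which no source states. Intervals counted from 0 were given counting from 1. All 2346 genes of linkage group I had the same position in the RefSeq gene table of assembly NC12, from which symbols were taken. Part of linkage group VI lies inverted against that table and was used as deposited.

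Members and lists were chosen with earlier results of these data known. An overlap of gene and domain needed at least 1 bp, a window of 100 kb took genes by midpoint, and distances ran from the nearer gene edge. Shares have Wilson 95% intervals. There are no replicates behind the positions, so no test was run. Measures were computed with Python 3.11.15, numpy 2.4.6, pandas 2.3.3 and scipy 1.17.1, and tested on simulated intervals. The text names genes with at least 50% of their length in a domain, those next to the longest domain, to his-3 and to the ends, the ends of runs, gaps and stretches, and up to 30 genes of the lists by symbol nearest to a domain. Other genes, such as al-1, matA-1, set-7 and NCU09898, were named after their values were seen. Sequences were not used.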

Additional observations from a re-analysis of the deposited data

How the results depend on the processing

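Of 74 alternatives for 15 results, 48 left the value within its interval or within 1.5 times. The difference of median distance on linkage group I, highest minus lowest list (-2.64 kb), reversed to 0.266 kb with domains of at least 10 kb, to 9.75 kb without the longest stretch between domains and to 0.635 kb without runs of 5 or more lowest-list genes. It moved to -6.51 kb with domains of at least 3 kb, -1.38 kb from gene midpoints, -8.84 kb without the outer 200 kb and -7.66 kb with locus tags under NCU10000. The cause was not tested. On the left side (25.98 kb) it moved to 74.3 kb with domains of at least 10 kb and 15.3 kb without those runs, and on the right (-26.5 kb) to -94.9 kb, -13.3 kb and, without the stretch, -7.96 kb. All alternatives run kept the sign on each side. The stretch, the runs, the 20 kb merging and both alternatives for the share of a list over the chromosome were added after seeing the data.

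By construction, overlap counts depend on the minimum. The 49 overlapping genes became 23 at 300 bp, 16 at 50% of the gene and 109 with genes widened by 1 kb. For the lowest list 9 became 5, 4 and 15, and for the highest list 18 became 10, 7 and 37. With the lower or upper 2 lists in place of 1, the shares within 500 kb of the longest domain were 33.9% and 66.1%, and 56.1% of adjacent pairs matched. The lowest list's share of the chromosome was 18.0% with locus tags under NCU10000, and its excess on the left side fell from 1.85 to 1.14 percentage points without the outer 200 kb. No paired analysis was possible because the lists hold no values per library. The depth behind the lists is unknown.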

Other observations

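Apart from the listed genes, the reference table places 70 transfer RNA genes on linkage group I, none of which is in an expression list. Of these, 4 lay completely in an H3K9me3 domain: NCU15008 at 980460 to 980551, NCU15013 at 1550129 to 1550221, NCU15038 at 6329746 to 6329816 and NCU15043 at 6520772 to 6520860. Short domains held 2 of them, 0.3 kb around NCU15008 and 0.9 kb around NCU15013, and neither of these domains held a complete listed gene. On linkage groups II to V and VII together, 18 of 274 transfer RNA genes overlapped a domain, 15 of them completely. None of the 52 noncoding RNA genes and 6 ribosomal RNA genes annotated on linkage group I overlapped a domain. Few did on linkage groups II to V and VII together, 3 of 105 noncoding and 4 of 66 ribosomal RNA genes. None of the 70 transfer RNA genes lay within 500 kb of the longest domain, a range that held only 7.80% of the chromosome's listed genes. The same count is not given for the other chromosomes.

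On linkage group I, 18.4% of lowest-list genes had a locus tag numbered NCU10000 or higher, and 4.38% of highest-list genes did. The shares on the other chromosomes were 17.3% and 4.52%.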
